A study of Mus musculus with 8 samples.

Results

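The proteasome is the barrel-shaped protease that degrades ubiquitin-tagged proteins, and its subunits are encoded by genes whose mouse symbols begin with Psm. Members were taken by symbol alone: protein-coding genes named Psm, then a letter from a to g, then digits only. The rule found 48 genes among the 38293 gene identifiers of the count table, and 47 of them had enough counts to be tested, among 13972 genes tested in all. The exception was Psmb11. The libraries were made from polyadenylated RNA from left ventricles of the mouse strain C57BL/6J. The injury was ischemia-reperfusion: the LAD, the coronary artery that feeds most of the left ventricle's front wall, was tied and then reopened. All mice then received 2 intramyocardial injections of 10 µl of UPy-PEG, a hydrogel that can hold and release a drug, and the tissue was frozen 3 days later. In the hydrogel group (4 libraries) the gel carried no drug, and in the antimiR-195 group (4 libraries) it carried antimiR-195, an inhibitor of the microRNA miR-195. Every group therefore shared the injury and the gel, and no uninjured or gel-free heart is analysed here. The labels do not say that the 8 libraries came from 8 animals, so each p-value reflects only how far these libraries spread, and that spread may be technical.

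In the working particle, a 20S core made of rings of alpha and beta subunits is capped by a 19S regulator that binds ubiquitin, unfolds the substrate and feeds it into the core. Of the beta subunits, 3 cut proteins: Psmb5 (chymotrypsin-like activity), Psmb6 (caspase-like) and Psmb7 (trypsin-like). Interferon gamma induces alternative versions of them, and immune cells carry these constantly: Psmb8 takes the place of Psmb5, Psmb9 that of Psmb6 and Psmb10 that of Psmb7. The resulting immunoproteasome is best known for making peptides for class I antigen presentation. In the heart, proteasome activity removes damaged and oxidised proteins after ischemia.

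The libraries held between 16872968 and 22751753 counts on genes. One library stood apart: antimiR-195 replicate 2 correlated with the rest at 0.944 to 0.970 in log2 CPM (counts scaled to library size), computed over genes, where the remaining 7 correlated with each other at 0.978 to 0.991. Fold changes and medians whose direction rests on it are given with and without it here or in the closing section. The tissue label was checked against 6 cardiomyocyte markers (Myh6, Tnnt2, Tnni3, Actc1, Myl2 and Ryr2), whose summed level lay between 50785 and 67083 CPM in the 8 libraries. Counts of a tissue cannot tell fewer cells of a type from less RNA per cell.

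The microRNA that the treatment inhibits pairs through its seed, bases 2 to 8, with matching sites in the 3′ ends of messages. The mature sequence (RefSeq, GRCm38.p6) is shown with the seed in capitals, followed by 6 of the 7 matches of at least 7 bases found in the 3′ UTRs of the members. The match is in capitals, with up to 10 bases on either side, written 5′ to 3′ as RNA, from the longest 3′ UTR of each gene in GENCODE M21.
mmu-miR-195a-5p, chr11:70235062-70235082, plus strand: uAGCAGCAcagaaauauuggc
Psmb1, UTR position 3: gaUGCUGCUgaggucuucu
Psmb1, UTR position 336: ccuugcuuucUGCUGCUguguguucau
Psmb1, UTR position 583: ccugaaggaaUGCUGCUuacuagcuug
Psmc1, UTR position 128: cauugugccgUGCUGCUcucuacuccc
Psmd13, UTR position 125: auccugaaauUGCUGCUccagcagacg
Psme3, UTR position 1006: gugcagaggcUGCUGCUccucgcugug
The 7 matches fall in 5 genes, 10.6% of the 47 members that have a 3′ UTR of at least 50 bases. Among all tested genes with such a UTR, 3671 of 12874, or 28.5%, held a match. These shares take no account of UTR length, and 46 of the 47 members were among the tested genes. A match describes the letters of the message and is no evidence of binding.

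The genes differed widely in level. In the authors' RPKM (reads per kilobase of gene, scaled to library size), the tested members ranged from 0.486 to 157 as means of the 8 libraries, and 42 of 47 lay at 10 or more. Psmb1, a non-catalytic beta subunit, was highest at 157 ± 34.9 RPKM (SD, n = 8). Psma8, an alpha subunit of the testis, was lowest at 0.486 ± 0.150 RPKM, from 7 to 23 counts per library. Psmb11, the beta subunit of the thymus, had 0 counts in every library, where 3 counts would correspond to at most 0.178 CPM. The testis and thymus versions were therefore at or near the floor in these ventricles.

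**Figure D1:**
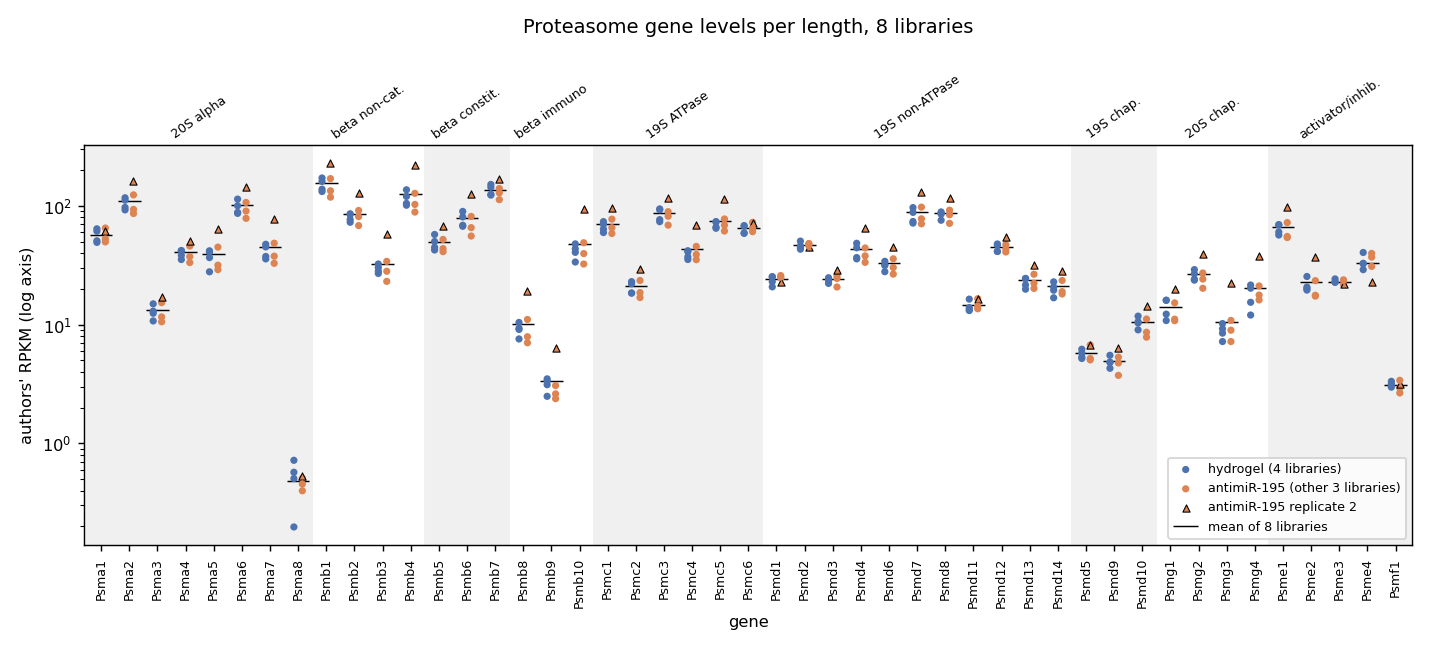
Level of each of the 47 tested proteasome genes in the authors' RPKM on a log axis, grouped by role; points are libraries, triangles mark antimiR-195 replicate 2 and black lines the mean of 8 libraries. Psma8 lies far below the other genes, at a mean of 0.486 RPKM, and Psmb8, Psmb9 and Psmb10 lie below Psmb5, Psmb6 and Psmb7 respectively.

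Subunits that occur together in one particle did not have equal levels. In the alpha ring, Psma2 was highest at 111 ± 24.8 RPKM and the lowest of the other broadly expressed alpha genes was at 13.2. The 19S ATPases, which unfold substrates, ran from 21.3 ± 4.13 RPKM for Psmc2 to 86.7 ± 14.9 for Psmc3. The non-ATPase subunits of the 19S cap ran from 14.7 ± 1.47 for Psmd11 to 88.5 ± 20.3 for Psmd7, and the non-catalytic beta genes from 32.7 ± 10.9 for Psmb3 to Psmb1. These orders depend on the gene length used. The authors' RPKM imply 944 bases for Psma2, where the longest principal transcript in GENCODE M21 has 2911. Per kilobase of that transcript Psma2 was at 35.8 CPM, Psma7 was the highest alpha gene at 152, and Psmb6 was the highest member of all at 186, above Psmb1 at 92.4.

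The assembly chaperones among the members had means between 4.96 and 26.9 RPKM, and the highest lay above Psmc2 and Psmd11. Pomp, an assembly factor outside the symbol rule, was at 139 ± 36.7 RPKM, or 64.5 CPM per kilobase of its longest principal transcript. The chaperones of 20S assembly, which build the alpha ring in pairs, ran from 10.6 ± 4.90 RPKM for Psmg3 to 26.9 ± 5.78 for Psmg2. The chaperones of the 19S base ran from 4.96 ± 0.808 for Psmd9 to 10.5 ± 2.06 for Psmd10. Among the proteins that bind the core, Psme1, a subunit of the interferon-inducible PA28 activator, was highest at 67.1 ± 14.5 RPKM. The lowest was Psmf1, which encodes the inhibitor PI31, at 3.09 ± 0.236.

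Constitutive catalytic genes exceeded their immunoproteasome versions in every library and in each of the 3 pairs. In RPKM, Psmb8 made up 16.6 ± 2.46% of the sum of Psmb8 and Psmb5 (SD, n = 8), with a range of 14.6 to 22.2%. Psmb9 made up 4.02 ± 0.615% of its sum with Psmb6, and Psmb10 25.1 ± 4.43% of its sum with Psmb7. With principal transcript lengths the shares were 25.6% for Psmb8, 4.61% for Psmb9 and 23.6% for Psmb10. The share of Psmb9 was the lowest of the 3 with both lengths, and the order of the other 2 depended on the length used. In the genome (GRCm38, GENCODE M21) Psmb8 at chr17:34197721-34201454 on the plus strand lies near Psmb9 at chr17:34181987-34187764 on the minus strand. Psmb10 is at chr8:105935735-105938444, Psmb5 at chr14:54614119-54618022 and Psmb7 at chr2:38588036-38644087, all on the minus strand, and Psmb6 is at chr11:70525367-70527858 on the plus strand. Psmb11 lies near Psmb5, at chr14:54621433-54629556 on the plus strand. Psmb9 overlaps the exons of the peptide transporter gene Tap1 on the opposite strand, and Psmb5 those of Mir686 on its own strand. The strand setting of the counting is not given in the sources used here, so the level of Psmb9 carries that uncertainty. Reads of Psmb5 that overlap Mir686 could be set aside as ambiguous under any setting.

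Setting the treatment groups side by side asks whether proteasome messages differed when the gel carried the inhibitor. The quasi-likelihood test of edgeR was run over all 13972 genes, with a threshold of 0.05 on the Benjamini-Hochberg adjusted p. Of the 47 members 0 passed, as did 0 of all genes (0.0%), and the smallest adjusted p of this edgeR test was 0.9999 for both. At an unadjusted p below 0.05 there were 0 members, against 178 of all genes (1.27%), of which 116 were higher (0.83%) and 62 lower (0.444%) with antimiR-195. In DESeq2, 193 genes had an unadjusted p below 0.05 and 0 passed. By edgeR the smallest unadjusted p of a member was 0.173. The antimiR-195 and hydrogel libraries overlapped in all 47 members, while they did not overlap in 1.07% of all genes. The 95% confidence interval of the log2 fold change held 0 in all 47, with a median half-width of 0.38.

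Although none was called, 39 of 47 members had a positive log2 fold change, against 52.4% of all genes tested. The median was 0.07, against 0.01 for all genes. Without antimiR-195 replicate 2 only 8 of 47 were positive, against 48.7% of genes, and the median was -0.07. The direction of the group therefore rested on that library.

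**Figure D2:**
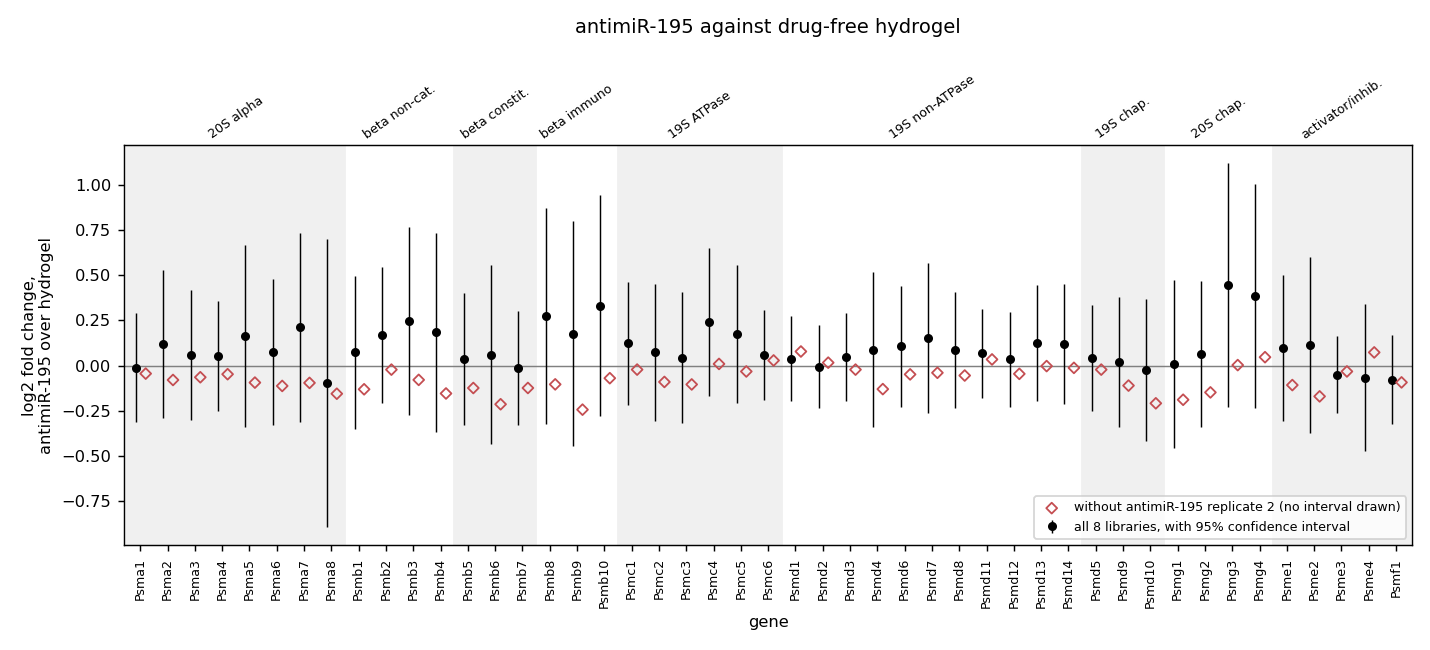
Log2 fold change of antimiR-195 over hydrogel for the 47 tested members; black points with 95% confidence intervals use all 8 libraries, and open diamonds leave out antimiR-195 replicate 2. Every interval holds 0, and 39 of 47 black points but 8 of 47 diamonds lie above 0.

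The constitutive catalytic genes barely differed in their group means. Psmb5 was at 43.6, 37.9, 52.6 and 37.97 CPM in hydrogel replicates 1 to 4 and at 44.5, 57.1, 36.3 and 38.6 CPM in antimiR-195 replicates 1 to 4. Psmb6 was at 151, 132, 177 and 123 CPM with hydrogel and at 149, 227, 106 and 125 CPM with antimiR-195, in the same order. Psmb7 was at 174, 153, 194 and 148 CPM with hydrogel and at 167, 199, 139 and 159 CPM with antimiR-195. In all 3 genes antimiR-195 replicate 2 was the highest library, antimiR-195 replicate 3 the lowest, and the groups overlapped. Their log2 fold changes were 0.04 ± 0.16 for Psmb5, 0.06 ± 0.22 for Psmb6 and -0.01 ± 0.14 for Psmb7 (± standard error), and edgeR gave each an adjusted p of 0.9999. Without antimiR-195 replicate 2 they were -0.12, -0.21 and -0.12.

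Over all 8 libraries the immunoproteasome genes spread further than the constitutive catalytic genes. Psmb8 was at 25.4, 21.2, 30.0 and 24.3 CPM with hydrogel and at 29.6, 51.1, 19.5 and 21.9 CPM with antimiR-195. Psmb9 was at 9.10, 11.7, 13.4 and 11.9 CPM with hydrogel and at 10.98, 22.6, 8.80 and 9.68 CPM with antimiR-195. Psmb10 was at 55.3, 43.8, 63.9 and 50.2 CPM with hydrogel and at 60.8, 115, 41.6 and 51.1 CPM with antimiR-195. For each gene antimiR-195 replicate 2 was far above all other libraries, antimiR-195 replicate 3 was the lowest, and the other antimiR-195 libraries lay within the hydrogel range. The log2 fold changes were 0.27 ± 0.27 for Psmb8, 0.18 ± 0.28 for Psmb9 and 0.33 ± 0.28 for Psmb10, again with adjusted p-values of 0.9999 by edgeR. Without antimiR-195 replicate 2 they were -0.10, -0.24 and -0.07. The standard deviation of log2 CPM over the 8 libraries was 0.44, 0.43 and 0.46, above 85.7%, 85.3% and 87.4% of all genes tested. Without that library it was 0.24, 0.22 and 0.23, above 66.9%, 62.6% and 64.5%. For Psmb5, Psmb6 and Psmb7 it was 0.24, 0.35 and 0.18 over 8 libraries and 0.188, 0.245 and 0.160 without that library. Psmb6 then lay above Psmb8 at 0.237, so the wider spread rested on antimiR-195 replicate 2. Over 8 libraries Psmg3 at 0.50 and Psmg4 at 0.48 spread more than the immunoproteasome genes.

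Each immunoproteasome gene was then set against the subunit it replaces within the same library, as the difference of their log2 CPM. The ratio of Psmb8 to Psmb5 was -0.77, -0.84, -0.81 and -0.64 with hydrogel and -0.59, -0.16, -0.90 and -0.81 with antimiR-195. The ratio of Psmb10 to Psmb7 was -1.65, -1.81, -1.60 and -1.56 with hydrogel and -1.45, -0.80, -1.73 and -1.63 with antimiR-195. That of Psmb9 to Psmb6 was -4.04, -3.48, -3.71 and -3.35 with hydrogel and -3.75, -3.32, -3.57 and -3.67 with antimiR-195. In all 3 ratios antimiR-195 replicate 2 was highest, by a wide margin for Psmb8 and Psmb10 and by little for Psmb9.

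Group means of these ratios differed by less than the SD within the antimiR-195 group. That SD was 0.33 for Psmb8 to Psmb5, 0.19 for Psmb9 to Psmb6 and 0.42 for Psmb10 to Psmb7. Within the hydrogel group the SDs were 0.08, 0.30 and 0.11, below the difference for the ratios of Psmb8 and Psmb10. The difference of antimiR-195 minus hydrogel was 0.15 for Psmb8 to Psmb5, with p = 0.571 in a two-sided exact permutation test over the 70 assignments of the libraries. For Psmb9 to Psmb6 it was 0.07, with an exact permutation p of 0.771. For Psmb10 to Psmb7 it was 0.25, with an exact permutation p of 0.343. Adjusted over the 3 ratios each exact permutation p was 0.771, and the smallest p the design allows is 0.0286. Without antimiR-195 replicate 2 the differences were 0.00026, -0.02 and 0.05.

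**Figure D3:**
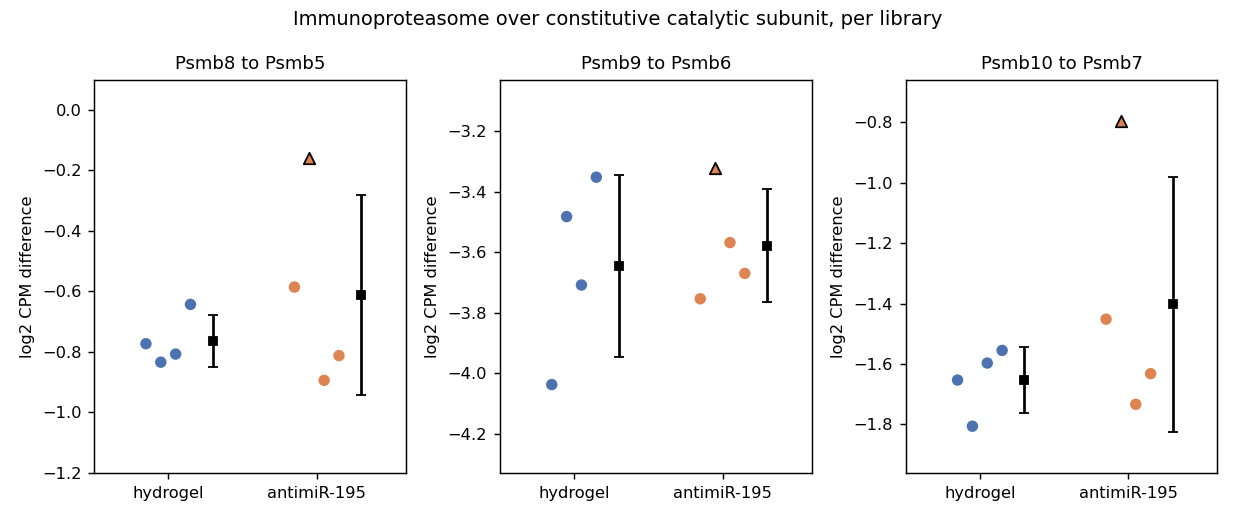
Difference of log2 CPM between each immunoproteasome catalytic gene and the constitutive gene it replaces, per library; circles are libraries, the triangle is antimiR-195 replicate 2, and squares with bars are the group mean ± SD (n = 4). Apart from the triangle, which is highest in all 3 panels, the libraries of the groups overlap.

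Promoters of a replaced and a replacing subunit are shown because the interferon-induced and the constitutive genes are known to answer to different factors. The windows run from 250 bases before to 50 after the start site (RefSeq, GRCm38.p6), 5′ to 3′ on the gene's strand, with motif matches in capitals.
Psmb8, chr17:34197945-34198244, plus strand: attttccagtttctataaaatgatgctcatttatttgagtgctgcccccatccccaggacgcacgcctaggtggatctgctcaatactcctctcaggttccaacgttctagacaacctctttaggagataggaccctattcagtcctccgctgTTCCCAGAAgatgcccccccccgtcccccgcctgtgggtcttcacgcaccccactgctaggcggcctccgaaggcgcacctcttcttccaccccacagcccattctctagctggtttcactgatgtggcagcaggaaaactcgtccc
Psmb5, chr14:54617946-54618245, minus strand: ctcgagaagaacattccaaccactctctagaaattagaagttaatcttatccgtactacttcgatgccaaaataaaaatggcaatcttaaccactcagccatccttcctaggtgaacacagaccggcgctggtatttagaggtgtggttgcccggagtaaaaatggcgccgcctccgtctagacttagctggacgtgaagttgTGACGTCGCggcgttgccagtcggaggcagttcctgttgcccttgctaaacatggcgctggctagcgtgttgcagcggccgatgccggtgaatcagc
Both strands were searched for the interferon gamma-activated site TTCNNNGAA, the core of the interferon-stimulated response element (GAAA, any 2 bases, GAAA) and the antioxidant response element core TGACNNNGC, where N is any base. The capitals in Psmb8 match the first and those in Psmb5 the last. The RefSeq window of Psmb8 lies wholly inside the gene's GENCODE M21 span, chr17:34197721-34201454. Its marked site is therefore within that span and not before it. Of 32851 promoter windows of the same length, 8.30%, 3.44% and 12.4% held these motifs, in that order. Windows were at hand for 40 of the 48 members, of which 3, 5 and 6 held them. The gamma-activated site was also in Psmd2 and Psmg1, and the interferon-stimulated core in Psmb3, Psmd4, Psmd9, Psme1 and Psmg4. The antioxidant core was also in Psmb6, Psmc6, Psmd9, Psmd12 and Psme4, while none of the 3 strings is in the windows of Psmb9 and Psmb10. Psmb7 was not in the table.

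Of the activators and the inhibitor of the core, 2 genes had their highest level in antimiR-195 replicate 2 and 3 did not. Psme1 and Psme2 together form PA28, which opens the core and is induced by interferon gamma. Psme1 was at 152, 136, 162 and 122 CPM with hydrogel and at 157, 210, 121 and 124 CPM with antimiR-195. Psme2 was at 36.5, 35.3, 47.2 and 34.5 CPM with hydrogel and at 40.5, 63.0, 31.0 and 31.6 CPM with antimiR-195. Both were highest in antimiR-195 replicate 2 and their groups overlapped, with log2 fold changes of 0.10 ± 0.18 and 0.11 ± 0.22. Without that library these were -0.11 and -0.17. Psme2b, a close copy of Psme2 outside the symbol rule, held 46 to 123 counts per library. Reads that align equally well to both copies could be missing from the counts of both.

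Psme3, the nuclear PA28 gamma, was almost level. It was at 67.3, 68.8, 70.6 and 69.7 CPM with hydrogel and at 62.8, 63.1, 71.0 and 70.2 CPM with antimiR-195. The standard deviation of its log2 CPM over 8 libraries was 0.07, above 1.4% of all genes tested, and its log2 fold change was -0.05 ± 0.10. Psmf1 was at 20.4, 20.4, 20.1 and 20.9 CPM with hydrogel and at 18.4, 19.6, 17.3 and 22.2 CPM with antimiR-195, a log2 fold change of -0.08 ± 0.11 that ran from -0.15 to -0.03 as single libraries were left out. Psme4, which encodes the large activator PA200, went the other way from the catalytic genes. It was at 272, 282, 256 and 331 CPM with hydrogel and at 254, 184, 337 and 315 CPM with antimiR-195, so that antimiR-195 replicate 2 was the lowest library and antimiR-195 replicate 3 the highest. Its log2 fold change was -0.07 ± 0.18, or 0.07 without antimiR-195 replicate 2.

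The smallest p on the higher side belonged to assembly factors and an ATPase, again through 1 library. Psmg3 was at 7.72, 7.29, 9.002 and 5.88 CPM with hydrogel and at 8.91, 18.1, 6.10 and 7.63 CPM with antimiR-195. Its log2 fold change was 0.45 ± 0.30, and it is the gene behind the smallest unadjusted value given above; edgeR's adjusted p was 0.9999. Psmg4, its partner in a chaperone pair, had a log2 fold change of 0.38 ± 0.28, and the 19S ATPase Psmc4 one of 0.24 ± 0.18. Without antimiR-195 replicate 2 these 3 values were 0.00, 0.05 and 0.01. On the lower side the smallest p belonged to Psmf1, Psme3 and Psme4.

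By role, no group of members held a called gene, and the medians ran from -0.05 to 0.27. The alpha ring had 6 of 8 members positive with a median log2 fold change of 0.07, the 19S ATPases 6 of 6 with 0.10, and the 19S non-ATPase subunits 10 of 11 with 0.09. The non-catalytic beta genes had 4 of 4 with 0.18, the 20S chaperones 4 of 4 with 0.22 and the 19S chaperones 2 of 3 with 0.02. The immunoproteasome genes had 3 of 3 with 0.27, the constitutive catalytic genes 2 of 3 with 0.04 and the activators and inhibitor 2 of 5 with -0.05. Without antimiR-195 replicate 2 the positive counts fell to 0 of 8, 2 of 6, 3 of 11, 0 of 4, 2 of 4, 0 of 3, 0 of 3, 0 of 3 and 1 of 5, in the order given. The medians were then -0.09, -0.03, -0.02, -0.10, -0.07, -0.11, -0.10, -0.12 and -0.09.

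AntimiR-195 replicate 2 was the highest library in 37 of 47 members and the lowest in 2, while it was highest in 30.8% and lowest in 33.1% of all genes tested. Its log2 CPM minus the mean of the other 7 libraries had a median of 0.49 over the members and -0.01 over all genes. The chaperone Psmg3 was highest at 1.27 and its partner Psmg4 was at 1.06, in a range of 0.55 to 1.27 for the 20S chaperones. The immunoproteasome genes were at 1.07 for Psmb8, 1.08 for Psmb9 and 1.14 for Psmb10, the non-catalytic beta genes at 0.60 to 0.96, the constitutive catalytic genes at 0.31 to 0.74, and the 19S non-ATPase subunits at -0.16 to 0.64. Psme4 was at -0.66. The 2 members in which this library was lowest were Psme4 and Psmd2, a large scaffold subunit of the 19S cap that was named after its values were seen.

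**Figure D4:**
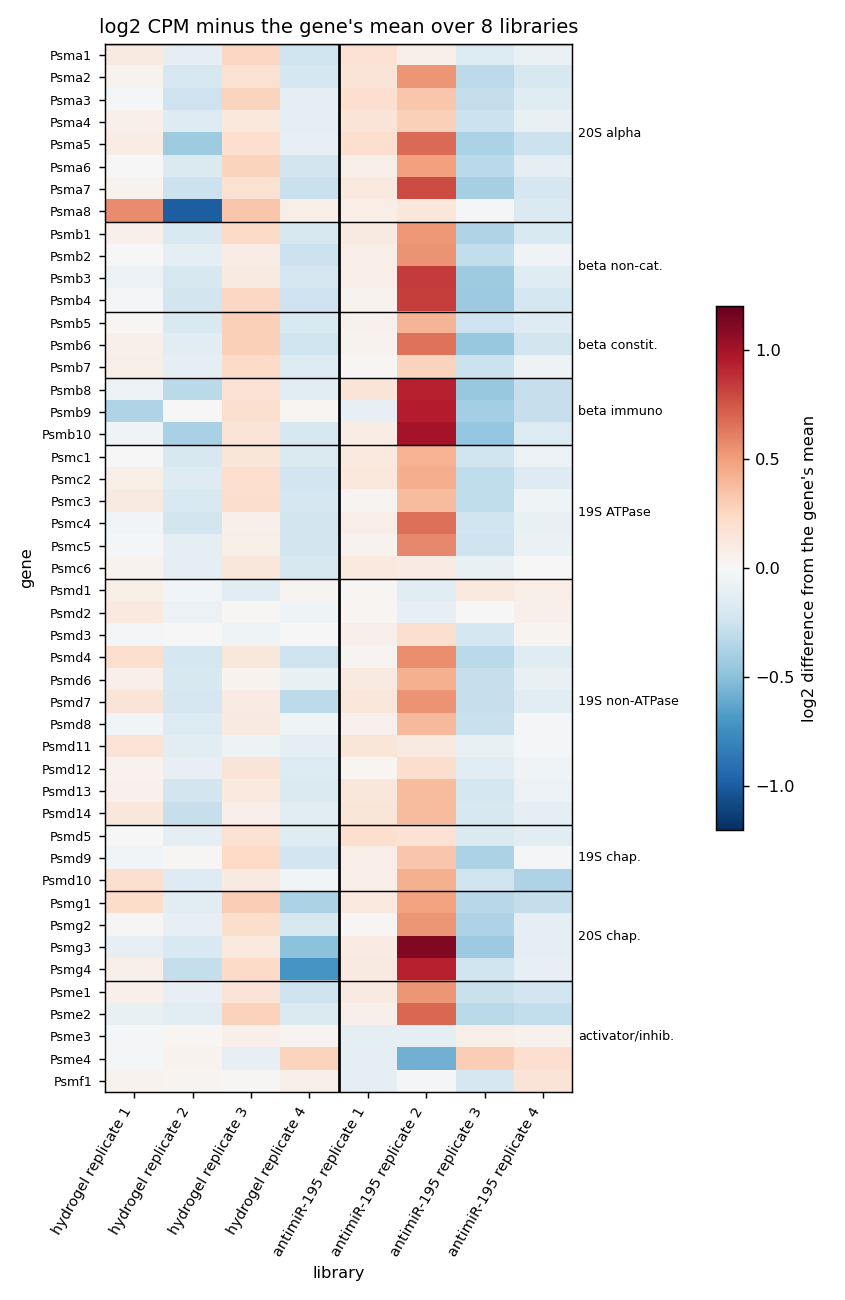
Log2 CPM of the 47 tested members in each library minus the gene's mean over 8 libraries, grouped by role; red is above and blue below the mean, and the vertical line separates hydrogel from antimiR-195. AntimiR-195 replicate 2 is the highest library in 37 of 47 rows, and antimiR-195 replicates 3 and 4 and hydrogel replicates 2 and 4 are mostly blue.

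The median deviation of the members from their own mean was 0.43 in antimiR-195 replicate 2, 0.15 in hydrogel replicate 3, 0.08 in antimiR-195 replicate 1 and 0.04 in hydrogel replicate 1. It was -0.12 in antimiR-195 replicate 4, -0.16 in hydrogel replicate 2, -0.18 in hydrogel replicate 4 and -0.27 in antimiR-195 replicate 3. High and low libraries thus came from both groups.

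Gene length moved with this order. Across all genes, the deviation of a library from the gene means had a Spearman correlation with gene length of -0.46, -0.33, -0.15 and -0.12 in the 4 libraries where the members were high, in the order just given. It was 0.31, 0.27, 0.33 and 0.55 in the 4 where they were low. The members were shorter than most genes, with a median length of 2169 bases against 3627, and Psme4 was the longest member at 8382. The share of alignments to more than 1 place was 47.8% in antimiR-195 replicate 2 and 42.1 to 44.5% in the others. After a smooth trend of each library on gene length was removed, the deviation of antimiR-195 replicate 2 had a median of 0.25 over all members. It was then 0.67 to 1.11 in the 3 immunoproteasome genes, 0.05 to 0.62 in the 20S chaperones, 0.03 to 0.78 in the non-catalytic beta genes and -0.19 to 0.46 in the 3 constitutive catalytic genes. This removal was chosen after the data were seen and used the lengths implied by the authors' RPKM. These are 2736 bases for Psmb8, 3659 for Psmb9, 1270 for Psmb10 and 1872 for Psmb6. The longest principal transcripts have 1628, 1352, 1311 and 798. Over all genes, the deviation of antimiR-195 replicate 2 had a Spearman correlation of -0.52 with principal length, against -0.46 with the authors' length. Removal by principal length was not run, so whether these differences would remain was not tested.

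**Figure D5:**
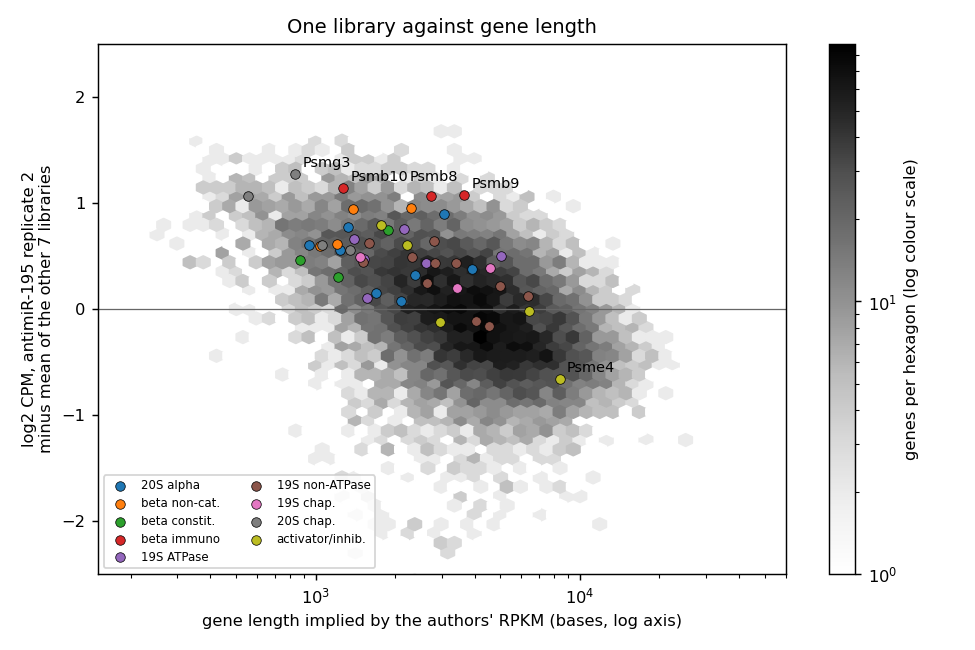
Log2 CPM of antimiR-195 replicate 2 minus the mean of the other 7 libraries against gene length on a log axis; grey hexagons count the 13863 tested genes with a length and coloured points are the 47 members by role. Shorter genes lie higher, Psmg3, Psmg4, Psmb8, Psmb9 and Psmb10 lie above 1 and Psme4 is at -0.66; 57 genes fall outside the drawn range.

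Markers of other cells were read beside this result, since leukocytes carry the immunoproteasome. Of 9 leukocyte markers, 7 were tested, and Cd3e and Cd8a of T cells and Nkg7 of killer cells had 2 to 16 counts per library. The summed level of the tested markers, most of it from Lyz2 of macrophages and neutrophils, was 1138 to 1606 CPM with hydrogel and 980 to 1567 CPM with antimiR-195. The highest sum, 1606, was in hydrogel replicate 4, where Psmb8 was at 24.3 CPM, and the next, 1567, in antimiR-195 replicate 2, where it was at 51.1. The deviation of antimiR-195 replicate 2 from the other 7 libraries had a median of 0.44 over the tested leukocyte markers, 0.43 over the cardiomyocyte markers, 0.23 over 4 fibroblast markers and -0.24 over 3 endothelial markers. With the length trend removed, these medians were -0.04, 0.04, 0.38 and -0.14. The part of cell composition in the level of these genes was not tested.

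Levels of the catalytic genes varied together across libraries, less firmly for Psmb9. Correlations were computed for 24 pairs over 8 libraries on log2 CPM, with exact permutation p-values over pairings. In the 10 pairs without Psmb9, Pearson's r was 0.846 to 0.991 and Spearman's rho 0.881 to 1, with adjusted exact permutation p-values up to 0.00476 and 0.0174. Without the 2 libraries farthest from the median of the first gene, r was 0.736 to 0.958. In the 5 pairs with Psmb9, r was 0.695 to 0.895 and rho 0.548 to 0.690, with adjusted exact permutation p-values of 0.0196 to 0.0578 and 0.104 to 0.205. Without 2 libraries r was -0.03 to 0.355, so the relation of Psmb9 to the others rested on those libraries. The shared trend with gene length enters all of these values.

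Correlations with known regulators were computed for both sets of catalytic genes. Irf1, a transcription factor of the interferon response, had r of 0.095 to 0.160 with Psmb8, Psmb9 and Psmb10, and adjusted exact permutation p-values of 0.825 to 0.866. These values rested on antimiR-195 replicate 2: without it r was 0.635, 0.534 and 0.551, in that order of genes. Without hydrogel replicate 3 and antimiR-195 replicate 1, the 2 libraries farthest from the median of Irf1, r was -0.02, 0.05 and -0.05. That set keeps antimiR-195 replicate 2. Spearman's rho over all 8 libraries was 0.476, 0.262 and 0.524, with adjusted exact permutation p-values of 0.265, 0.536 and 0.225. Nfe2l1, the transcription factor that raises proteasome genes when proteasome activity drops, had r of -0.800 with Psmb5, -0.890 with Psmb6 and -0.745 with Psmb7. The adjusted exact permutation p-values were 0.00438, 0.00244 and 0.0120, and r was -0.560, -0.653 and -0.486 without the 2 farthest libraries, antimiR-195 replicates 2 and 3. Nfe2l1 has 5441 bases and was lowest in antimiR-195 replicate 2, at 264 CPM against 355 to 400 in the other libraries.

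Other genes of the pathway held no called gene either. Of 19 tested partners of the proteasome outside the symbol rule, 9 were positive with a median log2 fold change of -0.01; Pomp, the factor that matures the core, was at 0.11 ± 0.21 and Nfe2l1 at -0.03 ± 0.14. Of 12 class I antigen processing genes 8 were positive with a median of 0.04, with the peptide transporter Tap1 at 0.01 ± 0.17 and the light chain B2m at 0.05 ± 0.15. Of 11 tested interferon gamma genes 6 were positive with a median of 0.00, with Irf1 at -0.09 ± 0.13. Ifng itself had 0 to 2 counts per library. The 4 ubiquitin genes had a median of 0.26, or -0.12 without antimiR-195 replicate 2. The 7 ubiquitin ligases of muscle had a median of -0.08, or 0.01 without it. Without that library the medians of the partners, the class I genes and the interferon gamma genes were 0.02, 0.0013 and -0.03.

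Members with a miR-195 seed match were set beside those without one. The 5 members with a match had a median log2 fold change of 0.07, and so had the 41 tested members with a 3′ UTR and no match. With antimiR-195 replicate 2 left out, the medians were -0.02 and -0.08. Psmb1, which holds 3 of the 7 matches, was at 0.07 ± 0.19 and Psme3 at -0.05 ± 0.10. The difference between members with and without a match was not tested.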

How the data were processed

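Per the labels' protocols, TRIzol served for RNA isolation and a stranded TruSeq mRNA kit for the libraries. STAR, HTSeq, DESeq and GRCm38 are named in the submitters' processing notes. Which annotation release and strand setting were used, and the tools' versions, is not given in the sources used here. As deposited by the authors, the files hold whole-number gene counts per library and as a series table (0 cells differed), and RPKM values, whose implied gene length was the same in all libraries (largest relative spread 5.1e-07). Summary lines without a gene stayed out of totals and tests: reads outside genes were 6.38 to 7.55% and ambiguous reads 0.772 to 1.05% of uniquely aligned reads.

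Of 38293 identifiers, 36429 had a name in GENCODE M21. Genes kept by filterByExpr (13972) were scaled by TMM (factors 0.953 to 1.04) and tested with edgeR 4.0.16 in R 4.3.3, without covariates, with Benjamini-Hochberg adjustment. CPM use the scaled library sizes, and log2 CPM a prior count of 2. Alternatives used DESeq2 1.42.0, limma 3.58.1, upper-quartile factors, no filter, other scales and 7 libraries. Exons of 13 members overlap another gene. The edgeR fit and the length step were tested on simulated data. Members and lists were chosen with earlier results of these data known. Named genes followed a rule: Psmb5 to Psmb10, activators and inhibitor, tissue-restricted subunits, the 3 smallest p per direction, RPKM extremes per role and a few genes outside the family; 3 items are not reported here. The median 95% interval half-width of a member was 0.38 on the log2 scale.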

Additional observations from a re-analysis of the deposited data

How the results depend on the processing

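The 3 ratios kept the sign of their difference with a prior count of 0.5, on the scale log2(RPKM + 0.1) and with the length trend removed. No gene was called by edgeR, DESeq2 or limma in any setting, and all 8 omissions of 1 library gave 0 calls. At an unadjusted p below 0.05, edgeR had 178 of all genes, DESeq2 193, limma-voom with quality weights 333, edgeR without a filter 428, and the omissions 104 to 352, while 0 members reached it in any of these settings. Single-gene values had small sizes and often changed sign; the cause was not tested. With limma-voom and quality weights the log2 fold changes that did so were Psmb5 -0.076, Psmb6 -0.16, Psmb8 -0.064, Psmb9 -0.13, Psme1 -0.11, Psme2 -0.13, Psme4 0.076, Psmd9 -0.048, Psmc2 -0.070, Psmc3 -0.049, Psmd7 -0.032, Psmg2 -0.087, Psma2 -0.065, Psmb3 -0.022, Psmb1 -0.098, Pomp -0.10, Nfe2l1 0.068, Tap1 -0.17, B2m -0.065. With the length trend removed, an alternative chosen after seeing the data, they were Psmb5 -0.041, Psmb6 -0.011, Psmg2 -0.024, Psmb1 -0.014, Pomp -0.012, Tap1 -0.0027, B2m -0.033. Of 150 single-gene values outside the omissions, the other 124 kept their sign.

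Leaving out 1 library at a time changed the sign of 23 of 30 named genes, 21 values of the named genes and ratios in all without antimiR-195 replicate 2. The lowest and highest log2 fold changes were: Psmb5 -0.12 to 0.15, Psmb6 -0.21 to 0.20, Psmb7 -0.12 to 0.065, Psmb8 -0.10 to 0.44, Psmb9 -0.24 to 0.32, Psmb10 -0.069 to 0.50, Psme1 -0.11 to 0.19, Psme2 -0.17 to 0.23, Psme4 -0.19 to 0.073, Psma8 -0.36 to 0.11, Psmd9 -0.11 to 0.13, Psmd10 -0.21 to 0.078, Psmc2 -0.090 to 0.18, Psmc3 -0.10 to 0.14, Psmd7 -0.040 to 0.26, Psmg2 -0.15 to 0.18, Psma2 -0.079 to 0.23, Psmb3 -0.079 to 0.40, Psmb1 -0.13 to 0.19, Pomp -0.17 to 0.22, Nfe2l1 -0.097 to 0.077, Tap1 -0.18 to 0.10, B2m -0.084 to 0.11. The other 7 kept their sign: Psmf1 at -0.15 to -0.027, Psme3 at -0.081 to -0.025, Irf1 at -0.17 to -0.031, Psmg3 at 0.0029 to 0.62, Psmg4 at 0.047 to 0.53, Psmc4 at 0.0093 to 0.35 and Psmd11 at 0.028 to 0.13. The ratio of Psmb9 to Psmb6 ran from -0.064 to 0.16, that of Psmb8 to Psmb5 from 0.00026 to 0.25 and that of Psmb10 to Psmb7 from 0.047 to 0.36. No paired analysis was possible because the replicate numbers follow accession order and pair no libraries. Psma8, with 7 to 23 counts, and the lymphocyte markers were limited by depth.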
